A study of Mus musculus with 36 samples.

Results

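The genes described here are 40 genes of chromosomal DNA replication, from the licensing of origins to the copying of the strands and the packing of the new DNA. They were picked by symbol for their role in replication, with earlier results of these data known and with no threshold on a measured value, from the 55291 gene symbols of the deposited tables. All 40 had a value in each of the 36 libraries and all 40 passed the filter on low counts, so that none was lost from the 19231 genes tested.

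CUG960 mice of 21 weeks of age gave RNA from 2 tissues, left ventricle and atria. These mice are homozygous for TREDT960I, a transgene with interrupted CTG repeats in a DMPK context under a tetracycline-responsive promoter, and hemizygous for MHCrtTA, which places the rtTA activator under the cardiomyocyte promoter of α-myosin heavy chain. Both transgenes were present in all 6 cohorts, so groups without repeats are mice that never had doxycycline (dox) or were taken off it. Repeat RNA can be made in cardiomyocytes alone. The +dox cohort had dox chow from postnatal day 1 to the end and no vector, the –dox cohort never had dox, and the +/–dox cohort changed to normal chow at 9 weeks of age. The other 3 cohorts, MBNL1, MBNL2 and MBNL1+MBNL2, had dox throughout and at 9 weeks received AAV9 vectors for tagged human MBNL1, MBNL2 or both, which the cardiac TNNT2 promoter drives. MBNL proteins are splicing factors that bind CUG repeat RNA, which is how the repeats of myotonic dystrophy type 1 deplete them. Each cohort and tissue had 3 libraries. No library of mice given a vector without MBNL was analysed here, so an effect of the vector and an effect of MBNL cannot be told apart. Likewise, no library came from mice given dox without the repeat transgene. In the –dox and +/–dox comparisons an effect of dox and an effect of the repeats cannot be told apart.

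A cell that enters S phase first loads the MCM2-7 helicase onto origins with the help of ORC, CDC6 and CDT1, a step that geminin (Gmnn) blocks outside G1. CDC45 and the GINS complex then turn the loaded ring into a working helicase, primase and the polymerases copy both strands on the PCNA clamp, and ribonucleotide reductase supplies the nucleotides. Most mouse cardiomyocytes leave the cell cycle in the weeks after birth, whereas endothelial cells, fibroblasts and macrophages of the adult heart keep some capacity to divide. Many of these genes are switched on at the G1/S boundary by E2F factors.

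The deposited counts summed to between 55.03 and 97.1 M per library (median 72.1 M). Levels of a gene across libraries are given as CPM, counts scaled by the library total and its TMM factor. Chamber identity matched the labels, since the atrial myosin light chain Myl7 lay at 8.33 to 231 TPM (transcript abundance scaled for length and library) in ventricle and 9011 to 14028 TPM in atria. One library stood apart. Replicate 1 of the ventricle MBNL1 cohort had a count above 0 for 16885 genes, against 20578 to 24041 in the others, and listed Mcm10 and Chaf1b at 0. The next lowest was replicate 2 of ventricle MBNL1+MBNL2, at 20578 genes and the lowest ventricle total, 57.8 M. Ventricle MBNL1 results without replicate 1 follow the account of the roles. The library numbers run in 2 series. The first, of 20 libraries, holds replicates 1 and 2 of every cohort but MBNL1+MBNL2, and the second, of 16 libraries, holds every replicate 3 and the whole MBNL1+MBNL2 cohort.

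The members were transcripts of low to moderate abundance. Mean TPM over the 36 libraries was at least 10 for 4 members, from 1 to 10 for 27 and below 1 for 9. Pcna, the sliding clamp, was the highest at 35.5 TPM (range 24.8 to 50.8). The next were Gmnn at 18.9 TPM, the GINS subunit Gins4 at 16.1 TPM and Rpa2, a subunit of the single-strand binding protein RPA, at 13.9 TPM. The lowest were Exo1, a 5′ to 3′ exonuclease, at 0.0572 TPM and the origin recognition subunit Orc1 at 0.0953 TPM, whose counts ran from 7 to 94 and from 3 to 41. Over all members the summed level was 190.8 to 222.0 TPM in ventricle +dox and 136.0 to 178.8 TPM in the 15 other ventricle libraries, with no overlap. In atria the sum was 189.4 to 213.6 TPM in +dox and 168.7 to 218.8 TPM in the others, and these ranges overlapped.

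**Figure D1:**
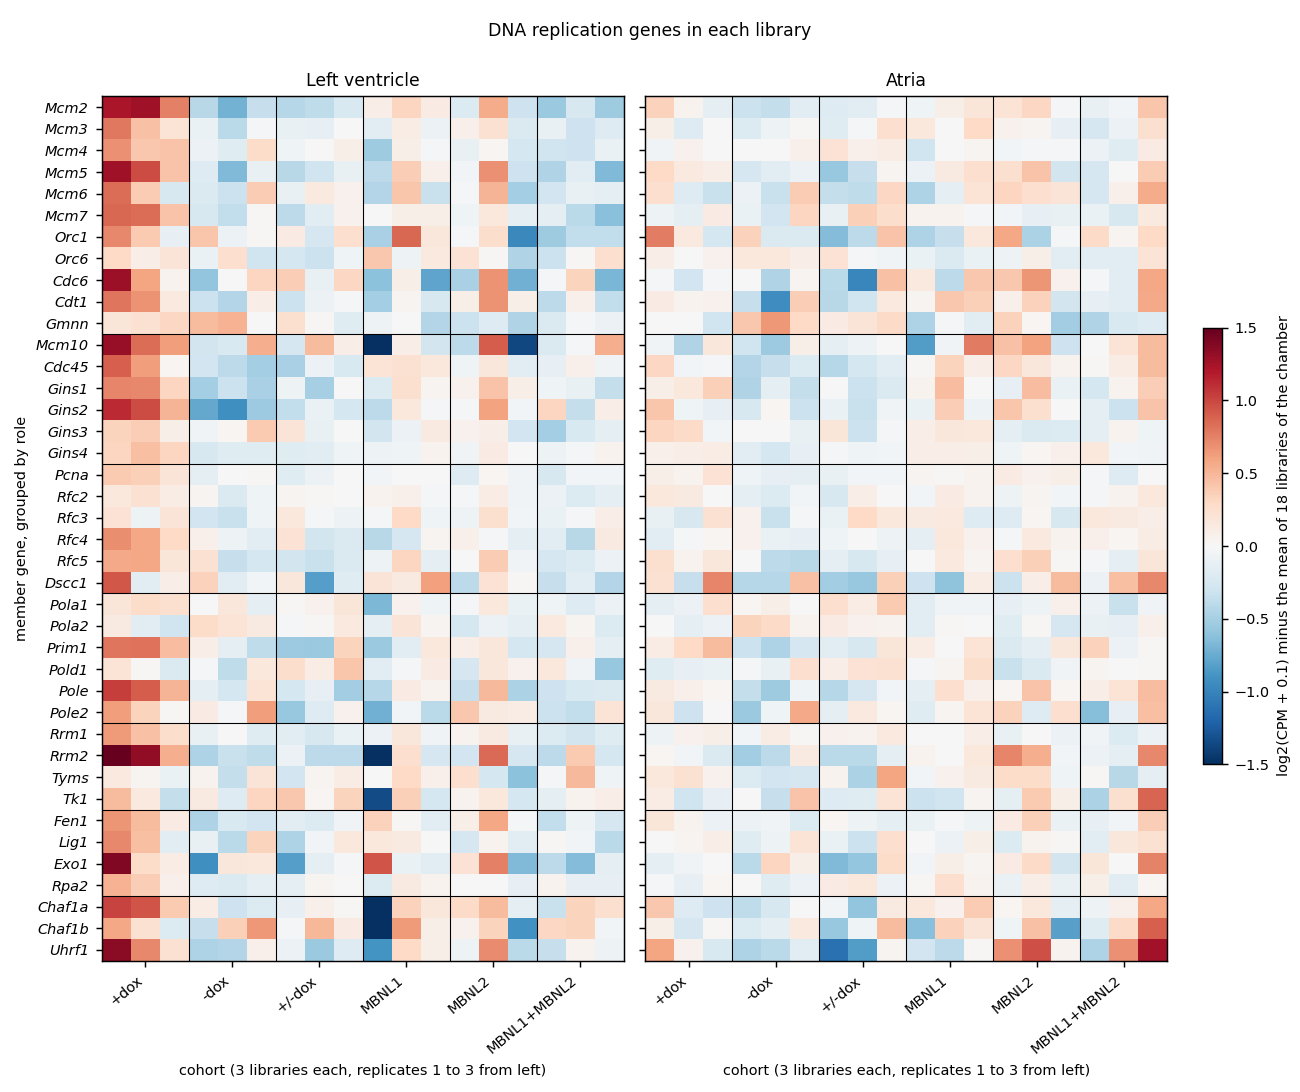
Level of each of the 40 members (rows, grouped by role) in each of the 36 libraries (columns, replicates 1 to 3 from left in each cohort), as log2(CPM + 0.1) minus the mean of the 18 libraries of the same chamber. Colour runs from 1.5 below (blue) to 1.5 above (red) that mean and values beyond are drawn at the limit. The 3 ventricle +dox columns are the reddest block, most of all replicates 1 and 2, and the atrial +dox columns show no such block.

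The promoters of these genes are shown because E2F factors are the known regulators of the group. RefSeq promoter windows on GRCm38.p6, from 250 bases before to 50 after the start, were found for 31 of the 40 members, and not for Mcm4, Gmnn, Gins1, Gins2, Gins4, Rfc2, Dscc1, Pole and Exo1. An E2F-type motif (TTTCCCGC, TTTGGCGC, TTTCGCGC or TTTGCCGC, either strand) lay in the windows of 14 members, 45.2% of those matched, against 2.6% of all 27025 symbols with a window. The CCAAT box (CCAAT, either strand) lay in 19 members (61.3% against 41.1% of all symbols), and a CHR element (TTTGAA or TTCGAA, either strand) in 6 (19.4% against 21.7%). These are matches of letters and no binding was measured. The 250 bases before the start follow for 3 helicase genes with an E2F-type motif, Mcm5 (chr8:75109259-75109508, + strand), Mcm6 (chr1:128359706-128359955, – strand) and the upstream start of Mcm7 (chr5:138171884-138172133, – strand). They are followed by 2 genes with large differences, a CCAAT box and no E2F-type motif in the window, which says only that those letters are not there, Mcm2 (chr6:88898781-88899030, – strand) and Rrm2 (chr12:24708004-24708253, + strand). Each is written 5′ to 3′ on the strand of its gene. Capitals mark E2F-type motifs, CCAAT boxes and CHR elements on either strand, and overlapping motifs form one longer run.
Mcm5: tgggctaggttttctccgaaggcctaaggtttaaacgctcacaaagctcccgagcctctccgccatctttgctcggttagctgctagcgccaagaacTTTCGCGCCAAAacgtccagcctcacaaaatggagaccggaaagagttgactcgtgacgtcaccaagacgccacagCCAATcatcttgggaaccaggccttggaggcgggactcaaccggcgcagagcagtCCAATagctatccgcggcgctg
Mcm6: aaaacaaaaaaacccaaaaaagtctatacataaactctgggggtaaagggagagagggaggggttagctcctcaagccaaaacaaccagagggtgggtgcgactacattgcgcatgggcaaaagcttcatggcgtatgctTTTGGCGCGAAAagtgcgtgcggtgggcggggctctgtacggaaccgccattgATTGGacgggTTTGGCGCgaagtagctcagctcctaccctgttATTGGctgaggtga
Mcm7: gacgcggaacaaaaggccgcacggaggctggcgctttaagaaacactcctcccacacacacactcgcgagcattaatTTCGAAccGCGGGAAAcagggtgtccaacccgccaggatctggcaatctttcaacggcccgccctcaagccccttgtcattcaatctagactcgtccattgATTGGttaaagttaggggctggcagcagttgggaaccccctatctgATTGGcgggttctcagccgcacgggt
Mcm2: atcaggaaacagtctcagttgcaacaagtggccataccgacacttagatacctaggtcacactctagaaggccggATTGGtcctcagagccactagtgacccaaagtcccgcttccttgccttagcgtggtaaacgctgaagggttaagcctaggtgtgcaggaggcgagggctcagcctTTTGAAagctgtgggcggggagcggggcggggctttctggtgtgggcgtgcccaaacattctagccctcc
Rrm2: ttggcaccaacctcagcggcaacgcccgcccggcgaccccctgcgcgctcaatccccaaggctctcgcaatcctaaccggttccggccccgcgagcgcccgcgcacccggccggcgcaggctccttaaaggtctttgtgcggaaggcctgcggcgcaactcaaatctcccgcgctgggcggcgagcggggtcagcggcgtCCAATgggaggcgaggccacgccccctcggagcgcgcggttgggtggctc

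In Mcm5 a pair of E2F-type motifs overlap in 1 run of capitals, and Mcm6 holds a like run and a further copy nearer the start. The medians of the 14 members with an E2F-type motif and of the 17 without it were -0.42 and -0.57 in ventricle –dox against +dox, and -0.53 and -0.62 in +/–dox. They were -0.51 and -0.41 in MBNL1, -0.41 and -0.39 in MBNL2 and -0.65 and -0.65 in MBNL1+MBNL2. In the same order 5, 4, 2, 2 and 4 of the 14 and 6, 8, 4, 3 and 8 of the 17 were called. No comparison of the members with and without the motif was tested.

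In the ventricle, 8 to 16 of the 40 replication genes were called lower than in +dox in each of the other 5 cohorts. A gene is called here at an adjusted p below 0.05 (edgeR quasi-likelihood test, Benjamini-Hochberg over all genes tested) with a difference of 1.5-fold or more. In –dox ventricles 14 of the 40 members were called lower, against 4.13% of all genes tested called lower in that comparison, and 0 were called higher (3.47% of all genes). In +/–dox ventricles 15 were called lower against 3.52% of all genes. The vector cohorts had 9 called lower with MBNL1 (1.51% of all genes), 8 with MBNL2 (0.749%) and 16 with MBNL1+MBNL2 (1.61%), and 0 members were called higher in any of these 4 comparisons (3.09%, 1.14%, 0.77% and 1.04% of all genes). Median log2 fold changes over the 40 members were -0.56, -0.59, -0.44, -0.45 and -0.68 in that order, where the median over all genes lay between -0.04 and 0.01. Values below 0 were found for 37, 37, 38, 40 and 38 members, and the highest values above 0 were those of Pola2 (0.30 in –dox) and Pold1 (0.26 in +/–dox), neither of them called. With the adjusted p alone and no fold threshold, 22, 19, 15, 15 and 20 members passed, where 20.9%, 21.8%, 8.95%, 7.43% and 8.34% of all genes did. All 5 comparisons share the same 3 +dox libraries, so their calls are not independent of each other. In heart tissue, fewer cells that copy their DNA and less RNA of these genes per cell cannot be told apart.

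Library by library the difference was broad but uneven. The +dox libraries lay above all –dox libraries for 23 members (16.5% of all genes did so), above all +/–dox libraries for 26 (18.9%), above MBNL1 for 21 (12.9%), above MBNL2 for 13 (15.5%) and above MBNL1+MBNL2 for 27 (13.2%). No member had its 3 +dox libraries below those of another ventricle cohort (17.1%, 19.0%, 10.3%, 12.3% and 9.31% of all genes in the same order). For 11 members (Mcm2, Mcm4, Mcm7, Gins4, Pcna, Rfc2, Rfc4, Pola1, Prim1, Pole and Rrm1) the +dox libraries lay above all 15 others, as they did for 3.99% of all genes.

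The 3 +dox ventricles differed among themselves. Replicate 1 was the highest of the 3 for 32 members and replicate 3 the lowest for 34, whereas over all genes each replicate was highest for 30.6% to 37.0%. Replicate 3 is also the one +dox ventricle of the second library series. Within the first series the median member differed from +dox by -0.67 in –dox, -0.74 in +/–dox, -0.56 in MBNL1 and -0.45 in MBNL2 (log2 ratio of mean CPM). Within the second series, with 1 +dox library, the values were -0.22, -0.23, -0.27, -0.40 and, for MBNL1+MBNL2, -0.35. The direction was the same in both series and the size was smaller in the second for each of the 4 cohorts that both hold. With the series as a term in the fit, 14, 15, 10, 9 and 13 members were called. Without +dox replicate 1 the counts were 11, 10, 7, 4 and 7, and without +dox replicate 3 they were 19, 17, 12, 11 and 18. The share of all genes called in either direction without +dox replicate 1 was 1.14% in MBNL2 and 1.81% in MBNL1+MBNL2. It differs between refits, and the shares for the other refits of this paragraph are not given here.

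Markers of other cell types were set beside these comparisons. For –dox, 4.13% of all genes were called lower and 3.47% higher. In –dox against +dox ventricles, 1 of 10 macrophage markers was called lower (Cx3cr1, log2 -0.99), with a summed level of 182.7 to 212.8 TPM in –dox and 200.2 to 319.0 TPM in +dox, and in MBNL2 ventricles the macrophage sum was 286.4 to 325.7 TPM. Of 6 T cell markers 1 was called lower (Cd3g, log2 -1.65), from sums of 0.75 to 1.00 TPM in –dox and 0.90 to 3.22 TPM in +dox. Endothelial markers summed to 243.9 to 312.1 TPM in –dox and 198.8 to 205.9 TPM in +dox, with 1 of 6 called higher (Tie1, 0.67). Ventricle fibroblast markers summed to 652.0 to 706.6 TPM in +dox, 564.4 to 707.3 TPM in –dox and 715.9 to 819.5 TPM in +/–dox. In MBNL1 they summed to 698.1 to 824.5 TPM, in MBNL2 to 778.0 to 1057 TPM and in MBNL1+MBNL2 to 779.4 to 995.1 TPM. Red cell markers summed to 1774 to 3908 TPM in –dox and 366.1 to 1147 TPM in +dox, and 0 of the 4 tested were called. The thymocyte genes Rag1, Rag2 and Dntt were at 0 in all libraries. The part of these cells in the result was not tested.

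**Figure D2:**
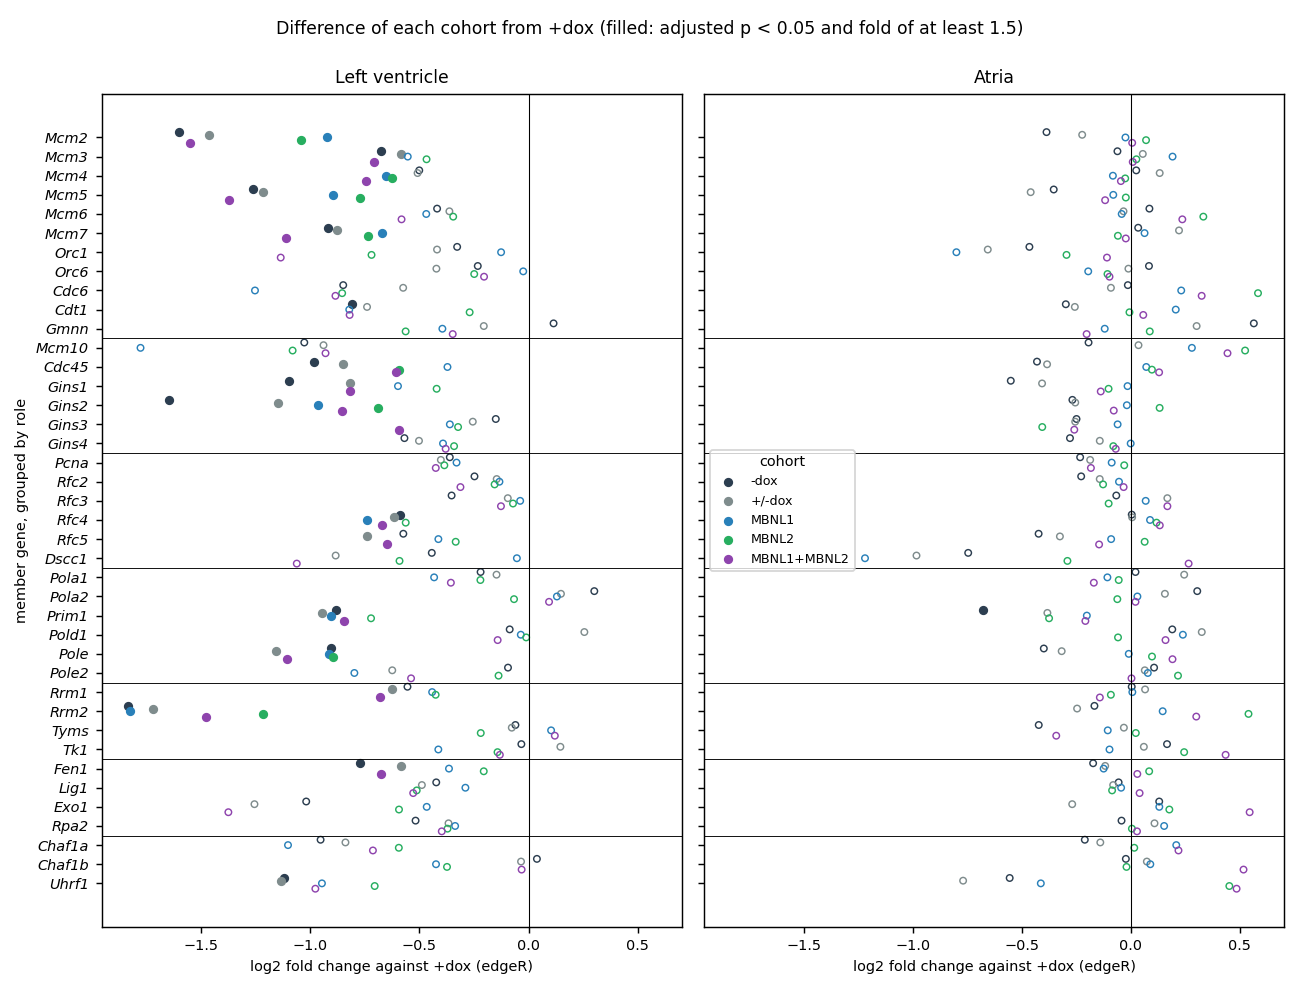
log2 fold change against +dox (x axis) of each member (y axis, grouped by role) for the 5 other cohorts, in left ventricle and atria, with filled points for an adjusted p below 0.05 and a fold of at least 1.5. Ventricle points lie mostly left of 0, down to -1.84 for Rrm2, and atrial points scatter around 0 with 1 filled point, Prim1 in –dox.

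Of the 11 origin licensing genes, 5 were called lower in –dox ventricles, 4 each in +/–dox, MBNL1 and MBNL2, and 5 in MBNL1+MBNL2. Mcm2 is a subunit of the replicative helicase (chr6:88883474-88898780, – strand, GRCm38). It had 18.6, 19.2 and 13.4 CPM in the +dox ventricles. Its –dox ventricles had 5.90, 4.81 and 6.21 CPM and its +/–dox ventricles 5.85, 6.03 and 6.71 CPM. The MBNL1 values were 8.45, 9.94 and 8.60 CPM, the MBNL2 values 6.83, 11.7 and 6.35 CPM, and those of MBNL1+MBNL2 5.36, 6.70 and 5.44 CPM. Every +dox library was above all 15 others, and of the 2 single-vector cohorts all libraries but MBNL2 replicate 3 lay above all –dox, +/–dox and MBNL1+MBNL2 libraries. Mcm2 was lower than in +dox by log2 fold changes of -1.60 (SE 0.18, adjusted p = 1.2e-07) in –dox, -1.46 (5.9e-07) in +/–dox, -0.92 (0.0013) in MBNL1, -1.04 (0.00073) in MBNL2 and -1.55 (1.2e-06) in MBNL1+MBNL2. Within the library series, Mcm2 in –dox differed by -1.80 in the first and -1.10 in the second.

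Mcm5 and Mcm7, of the same ring, were also called in all 5 comparisons. Mcm5 had 13.7, 11.2 and 7.57 CPM in +dox, 4.88, 3.50 and 5.17 CPM in –dox and 4.08, 4.95 and 3.51 CPM in MBNL1+MBNL2, with no overlap. MBNL2 replicate 2, at 9.06 CPM, lay above +dox replicate 3. Its log2 fold changes were -1.26 (SE 0.24) in –dox, -1.22 in +/–dox, -0.90 in MBNL1, -0.77 in MBNL2 and -1.38 in MBNL1+MBNL2, with adjusted p between 0.00031 and 0.043. Mcm7 had 19.2, 18.8 and 14.2 CPM in +dox, and the 15 others lay between 6.76 CPM (MBNL1+MBNL2 replicate 3) and 11.7 CPM (MBNL2 replicate 2). Its log2 fold changes were -0.92 (SE 0.15), -0.88, -0.67, -0.74 and -1.11 in the same order, with adjusted p between 1.7e-05 and 0.0057. The Mcm7 gene (chr5:138164583-138172422, – strand) also holds Mir25, Mir93 and Mir106b and overlaps Cops6 and Ap4m1 on the other strand, and the strand setting of the count is not given in the sources used here.

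The other ring subunits differed less. Mcm3 was called in –dox (-0.68, adjusted p = 0.0012), +/–dox (-0.59, 0.0044) and MBNL1+MBNL2 (-0.71, 0.0023), with 11.1, 8.65 and 7.37 CPM in +dox and 5.96, 4.79 and 6.25 CPM in –dox. All 3 calls were lost without +dox replicate 1, and the +/–dox call also with DESeq2, RLE factors or 1 chamber alone. Mcm4 had 17.7, 14.5 and 14.8 CPM in +dox and 7.54 to 13.3 CPM in the 15 others, below every +dox library. It was called in MBNL1 (-0.65), MBNL2 (-0.63) and MBNL1+MBNL2 (-0.75), while its values of -0.50 in –dox and -0.51 in +/–dox missed the fold of 1.5 at adjusted p of 0.0043 and 0.0037. Mcm6 had 7.97, 5.80 and 3.73 CPM in +dox and 3.81, 3.52 and 5.81 CPM in –dox. Those values overlapped, and its log2 fold changes of -0.58 to -0.35 had adjusted p of 0.23 to 0.53.

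The loaders and their inhibitor gave a mixed picture. Cdt1, which brings the MCM ring to ORC, had 3.57, 3.26 and 2.23 CPM in +dox and 1.58, 1.45 and 2.16 CPM in –dox ventricles. The groups did not overlap, by a small margin between the replicates 3, and Cdt1 was called in –dox alone (-0.81, SE 0.28, adjusted p = 0.035), a call lost without replicate 1 or 2 of either cohort. Its values elsewhere were -0.74 in +/–dox, -0.82 in MBNL1, -0.27 in MBNL2 and -0.82 in MBNL1+MBNL2, with adjusted p from 0.052 to 0.62. Gmnn, the CDT1 inhibitor, was not called. It had 22.1, 23.0 and 24.2 CPM in +dox, 27.3, 28.0 and 19.7 CPM in –dox and 15.6, 17.03 and 14.2 CPM in MBNL2. The –dox libraries lay on both sides of +dox (0.11, adjusted p = 0.66), and MBNL2 lay below it (-0.56, adjusted p = 0.025, under the fold of 1.5). Cdc6, the loading ATPase, Orc1 and Orc6 were not called, and Cdc6 and Orc1 had SEs of 0.42 to 0.58.

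Of the 6 genes that turn the loaded ring into a helicase, 3 were called lower in –dox, 3 in +/–dox, 1 in MBNL1, 2 in MBNL2 and 4 in MBNL1+MBNL2. Gins2, a GINS subunit, was called in all 5. It had 16.0, 14.6 and 10.5 CPM in +dox, 4.28, 3.84 and 5.02 CPM in –dox and 5.66, 6.84 and 6.07 CPM in +/–dox. The MBNL1 libraries had 5.56, 8.24 and 7.28 CPM, the MBNL2 libraries 7.17, 11.2 and 7.12 CPM and the MBNL1+MBNL2 libraries 9.20, 5.70 and 7.86 CPM. The –dox libraries were the lowest of all cohorts, and MBNL2 replicate 2 reached above +dox replicate 3. The MBNL2 calls of Gins2, Mcm5 and Rrm2 were each lost without replicate 1 or 2 of +dox or replicate 1 or 3 of MBNL2. The log2 fold changes of Gins2 were -1.65 (SE 0.22, adjusted p = 2.4e-06) in –dox, -1.15 in +/–dox, -0.97 in MBNL1, -0.69 in MBNL2 and -0.85 in MBNL1+MBNL2.

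Cdc45, the partner of GINS in the active helicase, had 5.15, 4.25 and 2.79 CPM in +dox and 2.23, 2.05 and 1.89 CPM in –dox, with no overlap. It was called in –dox (-0.99, adjusted p = 0.00017), +/–dox (-0.85), MBNL2 (-0.59) and MBNL1+MBNL2 (-0.61) but not in MBNL1 (-0.37, adjusted p = 0.19). Gins1 had 3.15, 3.13 and 2.33 CPM in +dox and 1.27, 1.45 and 1.29 CPM in –dox. It was called in –dox (-1.10, adjusted p = 0.0004), +/–dox (-0.82) and MBNL1+MBNL2 (-0.82). Gins3 was called in MBNL1+MBNL2 alone (-0.60, adjusted p = 0.041), with 1.86, 1.91 and 1.55 CPM in +dox and 0.993, 1.23 and 1.2999 CPM there. That call held with the replicate block and with no fold threshold, which cannot lose a call. It was lost with DESeq2, RLE factors, no filter on low counts, the library series as a term and 1 chamber alone. Leaving out replicate 1 or 2 of either cohort also lost it. The Cdc45 calls held in 3 of 7 refits without 1 library in MBNL2 and in 2 of 7 in MBNL1+MBNL2, being lost in both without replicate 1 or 2 of +dox or replicate 1 or 3 of the vector cohort, and in MBNL1+MBNL2 also without its replicate 2. Both tallies count the refit without ventricle MBNL1 replicate 1, which is in none of these groups. Gins4, the most abundant subunit, was steady between replicates, with 14.7, 16.0 and 14.6 CPM in +dox and 9.89, 10.3 and 10.3 CPM in –dox. All its +dox libraries were above the 15 others and its log2 fold changes of -0.57 to -0.34 had adjusted p of 8.8e-07 to 0.0043, yet all were under the fold of 1.5. Mcm10, which works in origin firing, was not called, with values of -1.78 to -0.93 and SEs of 0.65 to 0.67 at 0 to 1.22 CPM in ventricle.

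**Figure D3:**
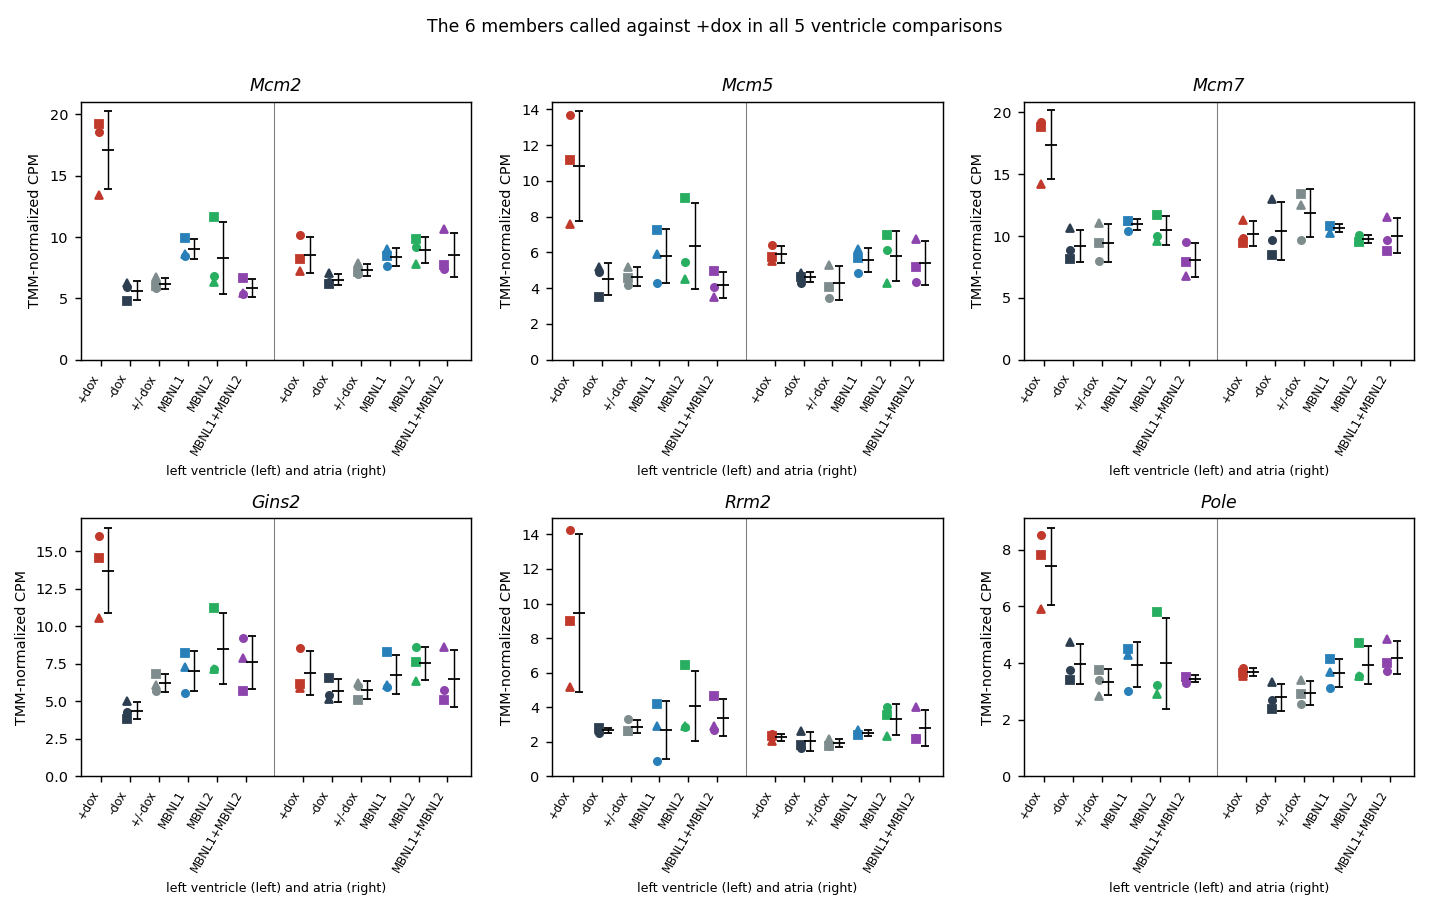
TMM-normalized CPM (y axis, from 0) of the 6 members called against +dox in all 5 ventricle comparisons, by cohort, ventricle left and atria right of the line, with circle, square and triangle for replicates 1, 2 and 3 and black marks for mean ± SD (n = 3). In ventricle the +dox mean is the highest and replicate 3 the lowest of its group, with MBNL2 replicate 2 above that replicate for Mcm5, Gins2 and Rrm2, and in atria the cohorts overlap or nearly so.

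Few of the clamp and clamp-loader genes were called, with 1 of 6 called lower in –dox, 2 in +/–dox, 1 in MBNL1, 0 in MBNL2 (3 at an unadjusted p under 0.05 in edgeR) and 2 in MBNL1+MBNL2. Pcna had 44.1, 43.0 and 38.4 CPM in +dox, and all 15 others lay between 28.4 and 34.4 CPM. The difference was small and regular, with log2 fold changes of -0.36, -0.40, -0.33, -0.39 and -0.43 (SE 0.07, adjusted p between 9.8e-05 and 0.0033), all under the fold of 1.5. Pcna has the pseudogenes Pcna-ps1 and Pcna-ps2, so part of its count could be split with them. Rfc4, of the clamp-loading RFC complex, had 9.21, 8.52 and 6.99 CPM in +dox and 4.22 to 6.59 CPM in the 15 others. It was called in –dox (-0.59), +/–dox (-0.62), MBNL1 (-0.74) and MBNL1+MBNL2 (-0.67) and was at -0.56 (adjusted p = 0.015) in MBNL2. Its –dox call was lost with DESeq2 and RLE factors and without +dox replicate 1 or 2 or –dox replicate 2 or 3. Rfc4 overlaps Eif4a2 on the other strand. Rfc5 was called in +/–dox (-0.74) and MBNL1+MBNL2 (-0.65), with 6.47, 6.49 and 4.90 CPM in +dox against 3.55, 3.42 and 3.70 CPM in +/–dox. Rfc2, Rfc3 and Dscc1 were not called, at -0.25, -0.35 and -0.44 in –dox.

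Among the 6 polymerase and primase genes, both that were called were called nearly everywhere. Pole, the catalytic subunit of the leading-strand polymerase ε, had 8.54, 7.82 and 5.90 CPM in +dox. It had 3.74, 3.40 and 4.75 CPM in –dox, 3.40, 3.76 and 2.83 CPM in +/–dox and 3.03, 4.51 and 4.27 CPM in MBNL1. With MBNL2 it had 3.22, 5.82 and 2.92 CPM, and with both vectors 3.31, 3.50 and 3.52 CPM. All +dox libraries were above the 15 others, the nearest being MBNL2 replicate 2, and the log2 fold changes were -0.91, -1.16, -0.92, -0.90 and -1.11 (SE 0.21, adjusted p between 0.00016 and 0.0086). Prim1, the catalytic subunit of primase, had 2.58, 2.61 and 2.03 CPM in +dox and 0.945 to 1.84 CPM in the others, and was called in all but MBNL2 (-0.72, adjusted p = 0.051). Polymerase α and δ genes differed by smaller folds, and none was called. Pola1 was at -0.43 to -0.15, and all its +dox libraries were above the 15 others. The catalytic Pold1 was at -0.14 to 0.26 and Pola2 at -0.07 to 0.30. Pole2 was at -0.80 to -0.09 with adjusted p of at least 0.11.

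Nucleotide supply was divided between the reductase and the thymidylate genes. Rrm2, the subunit of ribonucleotide reductase that is made in S phase (chr12:24708241-24714146, + strand), had the largest fall of all members in –dox. The +dox ventricles had 14.3, 9.00 and 5.16 CPM, a wide spread, against 2.51, 2.77 and 2.67 CPM in –dox and 3.31, 2.65 and 2.65 CPM in +/–dox. The MBNL1 libraries had 0.887, 4.21 and 2.93 CPM, the MBNL2 libraries 2.87, 6.43 and 2.94 CPM and the MBNL1+MBNL2 libraries 2.65, 4.64 and 2.92 CPM. Only MBNL2 replicate 2 reached into the +dox range. The log2 fold changes were -1.84 (SE 0.39, adjusted p = 0.0012), -1.72, -1.83, -1.22 (adjusted p = 0.049) and -1.48.

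Rrm1, the large subunit, had 25.9, 22.5 and 19.8 CPM in +dox and 13.6 to 18.6 CPM in the 15 others. It was called in +/–dox (-0.62, adjusted p = 4e-06) and MBNL1+MBNL2 (-0.68), and was at -0.56, -0.44 and -0.43 in –dox, MBNL1 and MBNL2 with adjusted p of 1.8e-05 to 0.003. Tyms, which makes thymidylate, had 1.68, 1.56 and 1.40 CPM in +dox and 1.56, 1.16 and 1.74 CPM in –dox. Tk1, the salvage kinase for thymidine, had 2.28, 1.81 and 1.24 CPM and 1.78, 1.41 and 2.05 CPM. For both the groups overlapped, and log2 fold changes of -0.22 to 0.12 for Tyms and -0.41 to 0.15 for Tk1 had adjusted p of 0.45 or more.

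Of the 4 genes for Okazaki fragment processing and single-strand binding, Fen1, the flap endonuclease, was called in –dox (-0.77, adjusted p = 0.00065), +/–dox (-0.59) and MBNL1+MBNL2 (-0.68). It had 9.20, 8.05 and 6.31 CPM in +dox and 4.16, 4.91 and 4.72 CPM in –dox, without overlap. The –dox call held in all refits. The +/–dox call held with no filter on low counts and with no fold threshold, which cannot lose a call. It was lost with DESeq2, RLE factors, the library series as a term, the replicate block and 1 chamber alone. Leaving out replicate 1 or 2 of either cohort also lost the +/–dox call. Rpa2 had 20.7, 18.5 and 15.2 CPM in +dox and 12.6, 12.4 and 13.1 CPM in –dox, and its values of -0.52 to -0.34 had adjusted p of 0.00044 to 0.035 under the fold of 1.5. DNA ligase 1 (Lig1, -0.53 to -0.29) and Exo1 (-1.38 to -0.47) were not called. Of the 3 chromatin genes, Uhrf1, which guides maintenance methylation to new DNA, was called in –dox (-1.12, SE 0.38, adjusted p = 0.035) and +/–dox (-1.13, adjusted p = 0.032). Its ventricles had 8.70, 5.59 and 3.93 CPM in +dox and 2.40, 2.45 and 3.54 CPM in –dox. Both calls were lost with no filter on low counts. Each held in 3 of 7 refits without 1 library, among them that without ventricle MBNL1 replicate 1, which belongs to neither group. The –dox call was lost without replicate 1 or 2 of either cohort, and the +/–dox call without +dox replicate 1 or any +/–dox library. The histone chaperone subunits Chaf1a (-1.10 to -0.59) and Chaf1b (-0.42 to 0.04) were not called.

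In all, 18 members were called in at least 1 of the 5 ventricle comparisons and 6 in all of them (Mcm2, Mcm5, Mcm7, Gins2, Rrm2 and Pole). Without replicate 1 of the MBNL1 ventricles, 6 members were called lower in MBNL1 in place of 9 (0.842% of all genes), and the median of the members was -0.42. Mcm4 (-0.49), Mcm5 (-0.72) and Prim1 (-0.73) were then no longer called. Still called were Mcm2 (-0.88), Mcm7 (-0.64), Gins2 (-0.82), Rfc4 (-0.64), Pole (-0.76) and Rrm2, whose value moved from -1.83 to -1.41. The +dox libraries lay above both remaining MBNL1 libraries for 23 members (19.4% of all genes). Against +/–dox and in the interaction with the chamber 0 members were called (4 and 15 at an unadjusted p under 0.05 in edgeR). Of all genes, 0.304% were called higher and 0.183% lower against +/–dox, and 0.00507% and 0.0101% in the interaction. The medians of the members were 0.15 and 0.40.

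**Figure D4:**
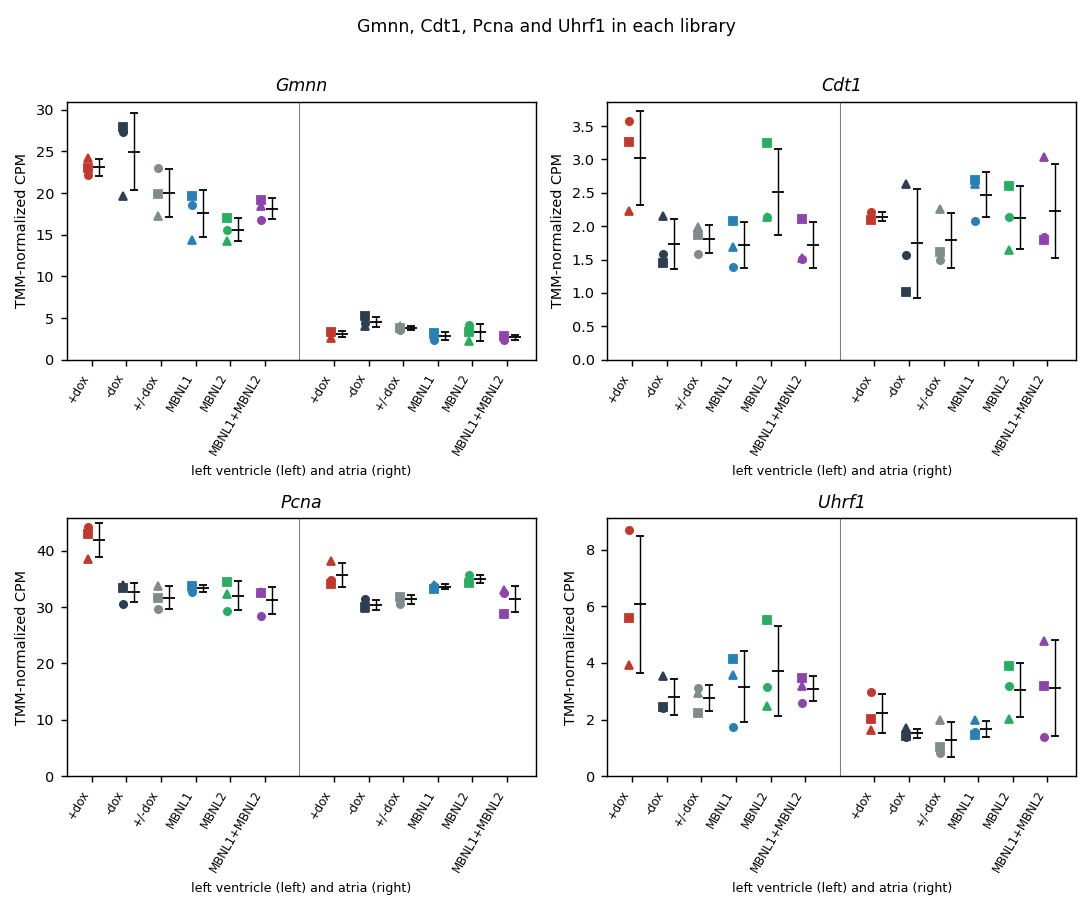
TMM-normalized CPM (y axis, from 0) of Gmnn, Cdt1, Pcna and Uhrf1 by cohort, ventricle left and atria right of the line, with circle, square and triangle for replicates 1, 2 and 3 and black marks for mean ± SD (n = 3). Gmnn is several times higher in ventricle (14.2 to 28.0 CPM) than in atria (2.26 to 5.22 CPM), and Pcna is highest in ventricle +dox by a small margin.

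Genes around the members moved to different degrees in ventricle. Of 42 further genes of the replication machinery, 7 were called lower in –dox, 8 in +/–dox, 2 in MBNL1, 4 in MBNL2 and 5 in MBNL1+MBNL2, with 0 higher in any. They included Mcm8, an MCM-family helicase, at -0.77 in MBNL1+MBNL2 and -0.62 in MBNL1, and Asf1b, a histone chaperone, at -1.34 in +/–dox and -1.24 in MBNL1. Of 33 genes of E2F and G1/S control, 4 were called lower and 1 higher in –dox, and 5, 4, 2 and 3 were called lower in the other comparisons. E2f1 itself fell by 2.15 on the log2 scale in –dox (adjusted p = 0.00067), Ccne1 (cyclin E1) by 2.65 and Ccnd2 (cyclin D2) by 1.71, while Cdk6, a G1 kinase, was higher (0.72). The median of that list was -0.09 in –dox, against -0.56 for the members. Of 26 mitosis genes, 11 were called lower in –dox, 14 in +/–dox, 5 in MBNL1, 0 in MBNL2 (7 at an unadjusted p under 0.05 in edgeR) and 5 in MBNL1+MBNL2. Their medians were -1.13, -1.21, -1.25, -0.76 and -1.11, and the summed level was 49.8 to 84.3 TPM in +dox against 25.5 to 56.9 TPM elsewhere. Without replicate 1 of MBNL1 ventricles, the MBNL1 counts were 3 further replication genes, 1 gene of E2F and G1/S control (Ccnd2, -0.96) and 0 mitosis genes (median -0.97, 13 at an unadjusted p under 0.05 in edgeR). Ube2c, of the anaphase-promoting pathway, was at -2.58 in –dox and Cdk1, the mitotic kinase, at -1.88.

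Against +/–dox, in which repeats were made and then stopped, 0 members were called in ventricle –dox (0.0312% of all genes in either direction), MBNL1 (0.868%), MBNL2 (1.57%) or MBNL1+MBNL2 (0.53%). At an unadjusted p under 0.05 in edgeR there were 3, 6, 7 and 1 members, DESeq2 also called 0 in each, and medians were -0.04, 0.05, 0.13 and -0.05. Mcm2 was at 0.54 in MBNL1 (SE 0.18, adjusted p = 0.1), 0.42 in MBNL2 (0.19) and -0.09 in MBNL1+MBNL2. Cyclin E1, of the list of E2F and G1/S control, was called higher than in +/–dox in all 3 vector cohorts (1.75, 2.06 and 1.45). With MBNL1 replicate 1 left out, 2 of the 33 genes of that list were called higher in MBNL1, Ccne1 and Ccnd2. In that fit 0.304% of all genes were called higher. The median was 0.125 for the list and 0.153 for the members.

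The atria showed little of the ventricular difference. Against +dox, 1 of 40 members was called in atria –dox, and it was lower (2.4% of all genes were called lower). With no fold threshold 4 members passed (15.9% of all genes). In +/–dox 0 were called (3.99% of all genes in either direction), as in MBNL1 (0.13%), MBNL2 (0.0052%) and MBNL1+MBNL2 (0.26%), with 10, 4, 0, 1 and 1 members at an unadjusted p under 0.05 in edgeR and 0 called by DESeq2 in those 4. Median log2 fold changes were -0.17 in –dox, -0.10 in +/–dox, -0.02 in MBNL1, -0.00 in MBNL2 and 0.01 in MBNL1+MBNL2. The +dox atria lay above all –dox atria for 11 members (18.1% of all genes) and below them for 2 (18.5%), and for 0 members above all 15 others (1.06% of all genes) or below them (0.858%).

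The called gene was Prim1, with 1.92, 2.20 and 2.49 CPM in atria +dox and 1.40, 1.26 and 1.46 CPM in –dox. The groups did not overlap and the log2 fold change was -0.68 (SE 0.23, adjusted p = 0.041). The Prim1 call was lost without any single library of either group. Of 7 refits without 1 library it held in 1, that without ventricle MBNL1 replicate 1, which is in neither group. No member was called without +dox replicate 3 or –dox replicate 2. Pcna had 34.9, 34.2 and 38.1 CPM in +dox and 31.3, 30.1 and 29.8 CPM in –dox (-0.23, adjusted p = 0.02). Gins4 had 14.7, 15.05 and 15.1 CPM and 12.5, 11.6 and 12.8 CPM (-0.28, adjusted p = 0.0063). Gmnn went the other way, with 3.30, 3.28 and 2.64 CPM in +dox and 4.38, 5.22 and 4.06 CPM in –dox (0.56, adjusted p = 0.018). None of these 3 pairs of groups overlapped, and none passed the fold of 1.5.

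Mcm2, the most changed ring subunit of the ventricle, had 10.1, 8.22 and 7.22 CPM in atria +dox and 6.33, 6.19 and 7.04 CPM in –dox. The difference was -0.39 (SE 0.18, adjusted p = 0.14), and in the other cohorts it was -0.22 to 0.07. Rrm2 had 2.44, 2.31 and 2.04 CPM in atria +dox, close to the 1.62, 1.80 and 2.63 CPM of –dox. Of the 33 genes of E2F and G1/S control 2 were called lower in atria –dox, Ccne1 (-2.04) and Ccnd2 (-1.17), and 1 higher, the cell cycle inhibitor Rb1 (0.59). Ect2, a cytokinesis regulator, was the 1 of 26 mitosis genes called there (-1.59).

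Against +/–dox in atria, Uhrf1 was called higher in MBNL2 (1.22, SE 0.39, adjusted p = 0.042, 1.61% of all genes called higher), from 3.19, 3.90 and 2.02 CPM and 0.838, 1.04 and 2.00 CPM. The nearest libraries, replicate 3 of each, were nearly level, and the call was lost without MBNL2 replicate 1 or 2 or +/–dox replicate 1 or 2. In MBNL1+MBNL2 it was at 1.25 with an adjusted p of 0.05, from 1.39, 3.17 and 4.78 CPM. No member was called in –dox (0.0104% of all genes), MBNL1 (1.21%) or MBNL1+MBNL2 (1.71%) against +/–dox in atria, with 0, 3 and 6 at an unadjusted p under 0.05 in edgeR and 0, 0 and 1 called by DESeq2.

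The chambers were compared within –dox and within +dox. Without repeats, replication genes sat at like levels relative to other genes, with the exception of Gmnn. In –dox 1 member was called lower in atria than in ventricle (11.2% of all genes were called lower) and 0 higher (13.7%), and the median of 0.02 was near the 0.03 of all genes. That gene was Gmnn, at 4.38, 5.22 and 4.06 CPM in atria and 27.3, 28.0 and 19.7 CPM in ventricle (-2.46, SE 0.17, adjusted p = 1.8e-13). With no fold threshold 7 members passed (42.6% of all genes), and with same-numbered libraries of both chambers as a block 2 members were called. In +dox 15 members were called lower in atria (11.8% of all genes) and 0 higher (13.2%). The median was -0.51 against 0.00 for all genes. The size of a chamber difference depended on the scale. The mitochondrial share of TPM was 26.6% to 31.7% in ventricle and 19.2% to 22.6% in atria, and its part in the scale dependence was not tested. On the TPM scale the median of all genes was 0.54 and that of the members 0.03 in +dox, and 0.57 and 0.57 in –dox, so relative to all genes the members were lower in +dox atria on either scale. The largest +dox differences besides Gmnn (-2.91) were those of Rrm2 (-2.06), Mcm10 (-1.90), Uhrf1 (-1.45), Exo1 (-1.43), Cdc6 (-1.29), Mcm6 (-1.05) and Rfc4 (-1.04). The +dox chamber calls of Mcm10, Exo1, Cdc6, Mcm6 and Cdc45 were lost without ventricle +dox replicate 1. Those of 10 members held in every refit (Mcm2, Mcm5, Mcm7, Gmnn, Gins1, Gins2, Rfc4, Pole, Rrm2 and Uhrf1).

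Whether a cohort effect differed between the chambers was tested directly, as the atrial minus the ventricular log2 fold change against +dox. Each interaction, like the +dox chamber comparison, used the same ventricle +dox libraries as the ventricle comparisons above. The calls of all these comparisons are thus not independent of each other. For –dox, 3 members were called, each with a difference above 0 (0.395% of all genes), Mcm2 at 1.21 (SE 0.25, adjusted p = 0.0081), Gins2 at 1.38 (0.017) and Mcm7 at 0.95 (0.02). For +/–dox there were 3 (0.255%), Mcm2 at 1.24 (adjusted p = 0.012), Mcm7 at 1.10 (0.0099) and Rrm1 at 0.69 (0.0039). For MBNL1+MBNL2 there were 2 (0.0572%), Mcm2 at 1.56 (adjusted p = 0.004) and Mcm7 at 1.09 (0.032). For MBNL1 0 were called (0.0312% of all genes in either direction), with 18 at an unadjusted p under 0.05 in edgeR and 1 called by DESeq2, and for MBNL2 0 (0.0364%), with 17 and 1. With same-numbered libraries of both chambers as a block, the MBNL2 count was 3. The median difference over the members was 0.49, 0.47, 0.47, 0.39 and 0.69 for –dox, +/–dox, MBNL1, MBNL2 and MBNL1+MBNL2. For the members not called in an interaction, a difference between the chambers was not shown.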

How the data were processed

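Stranded poly(A) libraries from 250 ng of RNA were sequenced as paired 150 bp reads in 3 animals of each of 6 cohorts and 2 tissues. The authors used STAR 2.7.10b, mm10, GENCODE M25 and RSEM 1.3.1. The expected counts they deposited are estimates per symbol without normalization, and the TPM values they deposited are scaled by length and library. No source used here gives RSEM's strand setting.

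Expected counts were rounded and tested with edgeR 4.0.16 (R 4.3.3, limma 3.58.1) in 1 fit of 36 libraries with 12 group means, TMM factors, robust dispersions (biological coefficient of variation 17.4%) and filterByExpr. Adjusted p-values are Benjamini-Hochberg values over the 19231 genes of 1 comparison. A gene was called below 0.05 and at a fold of 1.5 or more, as in the study. The SE is the log2 fold change over the root of its F statistic. CPM values are TMM-normalized, and levels of different genes were compared in TPM. P-values rest on the spread between animals within groups, pooled over the 12 groups and moderated across genes. The 2 chambers of an animal entered as separate libraries. The study lists 1 female of 3 in each cohort but MBNL1+MBNL2 with 0, and does not tie sex to replicate numbers. Median counts of 9 to 40 limit the precision for Dscc1, Orc1, Exo1, Mcm10 and Chaf1b.

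The 40 members and all gene lists were chosen with earlier results of these data known. Named with values are members called against +dox, between the chambers in –dox or in an interaction, the highest and lowest in TPM, and Pcna, Mcm2, Mcm6, Gmnn, Cdt1, Rrm2, Tyms, Tk1 and Uhrf1. From other lists the called genes with the largest changes were named. Mcm8, Asf1b and Cdk1 against +dox and Ccne1 against +/–dox were chosen after their values were seen.

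Positions and overlaps are those of GENCODE M21 (GRCm38), where all 40 symbols were found, and promoters those of RefSeq. Of the members 9 overlap a gene on the same strand and 17 one on the other. No pair of replicates was a duplicate (chi-square per gene 10.3 to 141 over 36 pairs).

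Both chambers came from the same animals, but the study does not tie animals to replicate numbers. After removal of group means, same-numbered chamber pairs all correlated above 0.1 in 3 of 6 cohorts (+dox, –dox and MBNL2, with r from 0.0407 to 0.257 over all 18 pairs), so a block was a second fit there. Within a chamber no comparison had all pairs above 0.1. Alternatives were DESeq2 1.42.0, RLE factors, no filter on low counts, no fold threshold, 1 chamber at a time, the library series as a term, a replicate block and leaving out each library. The setting with no fold threshold uses the main fit and cannot lose a call. Ventricle MBNL1 replicate 1 was also left out for comparisons that do not hold it. Splicing, transgene and vector reads were not analysed here. Figures were drawn with Python 3.11.15 and matplotlib 3.10.9.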

Additional observations from a re-analysis of the deposited data

Results flagged for a closer look

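For 4 members the effect of a cohort against +dox differed between the chambers in the edgeR interaction test, and in each case the log2 fold change was lower in ventricle. All of these interactions share the same +dox libraries. In –dox mice the atrial minus the ventricular log2 fold change was 1.21 for Mcm2, 0.95 for Mcm7 and 1.38 for Gins2. In +/–dox mice it was 1.24 for Mcm2, 1.10 for Mcm7 and 0.69 for Rrm1, and in MBNL1+MBNL2 mice 1.56 for Mcm2 and 1.09 for Mcm7. In +dox mice Mcm2 lay at 18.6, 19.2 and 13.4 CPM in ventricle and 10.1, 8.22 and 7.22 CPM in atria, and in –dox mice at 5.90, 4.81 and 6.21 CPM and 6.33, 6.19 and 7.04 CPM. The chambers were thus apart in +dox and overlapped in –dox. Over 13 refits without 1 library each, Mcm7 stayed called in 6 and Gins2 in 8 for –dox, and Mcm7 in 5 for MBNL1+MBNL2. Each tally counts the refit without ventricle MBNL1 replicate 1, which is in none of these groups. Leaving out ventricle +dox replicate 1, ventricle –dox replicate 1 or atria +dox replicate 2 left 1 member called for –dox. In those fits 0.566%, 0.505% and 0.45% of all genes were called in either direction. Leaving out ventricle +dox replicate 3 gave 5 members (0.828%). Rrm1 was lost without ventricle +dox replicate 1. Mcm2 was called in every refit of the –dox, +/–dox and MBNL1+MBNL2 interactions. No cause of the difference was tested.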

How the results depend on the processing

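Of 370 counts of called members refitted under the alternatives, 54 moved by over 1.5 times. Of 1247 refits of the 88 single calls, 1088 stayed past the thresholds, 159 did not and 0 changed direction, and 47 calls held in all refits. The 1247 include the setting with no fold threshold, which cannot lose a call. They also include fits without ventricle MBNL1 replicate 1 for comparisons that do not hold that library. The members called in every refit were 10 in ventricle –dox against +dox, 9 in +/–dox, 6 in MBNL1, 2 in MBNL2 (Mcm2 and Mcm7) and 5 in MBNL1+MBNL2 (Mcm2, Mcm4, Mcm5, Mcm7 and Pole). With no fold threshold, 22 members passed in ventricle –dox (20.9% of all genes), 15 in MBNL1 (8.95%) and 15 in MBNL2 (7.43%). There were 4 in atria –dox (15.9%) and 7 between the chambers in –dox (42.6%). The shares of all genes that follow in brackets are those called in either direction. With no filter on low counts, 4 were called in ventricle MBNL2 (0.647%), 0 in atria –dox (2.51%) and 0 in atria MBNL2 against +/–dox (1.52%). In fits of 1 chamber, ventricle MBNL2 had 4 (0.888%), atria MBNL2 against +/–dox 2 (4.6%) and atria MBNL1+MBNL2 against +/–dox 1 (2.82%). DESeq2 called 1 in atria MBNL1+MBNL2 against +/–dox (2.98%) and 2 between the chambers in –dox (22.5%). In the interactions of MBNL1, MBNL2 and MBNL1+MBNL2 it called 1, 1 and 5 (0.098%, 0.536% and 0.382%). RLE factors gave 1 in atria MBNL1+MBNL2 against +/–dox (1.71%). The library series as a term gave 2 there (3.1%) and 2 between the chambers in –dox (25.4%). Chamber pairs of the same number as a replicate block gave 2 between the chambers in –dox, 3 in the MBNL2 interaction, 6 in that of +/–dox and 5 in that of MBNL1+MBNL2, though same-numbered pairs did not all correlate in the last 2 cohorts. Of the 18 chamber pairs, 16 correlated best with their own number, and within a chamber 28 of 54 did. The block moved no other count by over 1.5 times. The cause of these shifts was not tested, apart from the loss of the fold threshold.

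Leaving out 1 library gave 11 to 19 called members in ventricle –dox, 10 to 17 in +/–dox, 6 to 12 in MBNL1, 2 to 11 in MBNL2 and 7 to 18 in MBNL1+MBNL2. Brackets in this paragraph give the share of all genes called in either direction. The MBNL2 count was 4 without +dox replicate 1 (1.14%), +dox replicate 2 (2.06%) or MBNL2 replicate 1 (0.531%). It was 2 without MBNL2 replicate 3 (1.16%). The MBNL1+MBNL2 count was 7 without +dox replicate 1 (1.81%) and 10 without MBNL1+MBNL2 replicate 1 (1.3%). The range was 0 to 1 in atria –dox, 0 to 1 in atria MBNL2 and 0 to 1 in atria MBNL1+MBNL2 against +/–dox. The last had 1 without atria MBNL1+MBNL2 replicate 1 (2.2%), atria +/–dox replicate 3 (1.36%) or ventricle MBNL1 replicate 1 (2.09%). Between the chambers in –dox the range was 1 to 3, with 2 without ventricle replicate 2 (22.7%) and 3 without atria replicate 3 (22.8%). In the interactions the range was 1 to 5 for –dox, 2 to 4 for +/–dox, 0 to 2 for MBNL2 and 1 to 4 for MBNL1+MBNL2. For –dox it was 1 without ventricle +dox replicate 1 (0.566%), ventricle –dox replicate 1 (0.505%) or atria +dox replicate 2 (0.45%). The count was 5 there without ventricle +dox replicate 3 (0.828%). For MBNL2 it was 2 without ventricle MBNL2 replicate 2 (0.0404%). For MBNL1+MBNL2, 7 libraries each left 1 call (0.0152% to 0.0606%). Leaving out ventricle +dox replicate 3 (0.101%) or ventricle MBNL1 replicate 1 (0.157%) gave 4. Of 394 refitted medians 18 changed sign, all of comparisons whose medians lay near 0 or moved with the chamber scale. Ranks of 28 of the 40 members by TPM moved when CPM was used, since CPM takes no account of length.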
